A study of Mus musculus with 27 samples.

Results

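This account compares ΔHD2/- with ΔHD2/fl mammary tumour cell lines of the mouse after treatment with Wnt3a. The comparison used 5 of the 27 RNA-sequencing libraries in the series, namely those of ΔHD2/- lines 1, 2 and 3 and of ΔHD2/fl lines 1 and 2 under Wnt3a. The 5 libraries of the same lines without cytokine served to say which differences were already there before Wnt3a. All lines came from MMTV-PyMT mice on the FVB/N background, in which a mammary gland promoter drives the polyoma middle T oncogene, and were grown from tumours of the thoracic glands of females aged 12 weeks. In ΔHD2/fl cells, 1 copy each of Bcl9 and Bcl9l (Bcl9L) lacked the HD2 domain and the other copy was wild type but floxed. In ΔHD2/- cells the floxed copies had been cut out in culture with an adenovirus carrying Cre and GFP, and GFP-positive cells had been sorted, so that only the ΔHD2 copies were left. The HD2-deleted copies were thus shared by both groups, and the groups differed in the wild-type copy. The methods also describe a control virus without Cre, and whether the ΔHD2/fl libraries came from cells that had received it is not given. Wnt3a was given at 100 ng/ml for 3 days, and the untreated cells were kept in medium alone for 4 days, so the treated and untreated cultures also differ in their stated time. Each library is 1 established line. Whether a ΔHD2/- line and the ΔHD2/fl line of the same number grew from the same tumour is not given.

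Bcl9 and Bcl9L are coactivators that attach to β-catenin through their HD2 domain and to Pygopus through their HD1 domain. When a Wnt ligand such as Wnt3a binds Frizzled and Lrp receptors, β-catenin escapes degradation, enters the nucleus and joins TCF/LEF factors on target genes such as Axin2, itself a negative regulator of the pathway. In squamous epithelia, keratinocytes leave the basal layer and switch on genes of the cornified envelope, desmosomes and skin proteases in a fixed order, and mammary tumour cells can take up parts of that programme.

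The 5 Wnt3a libraries held 24.1 to 27.95 M reads assigned to genes (1 M is 1000000 reads). Values are CPM, that is, reads per 1000000 such reads. A gene without reads could have had up to 3 by counting error alone, which is 0.1073 to 0.1245 CPM in these libraries. ΔHD2/- lines 2 and 3 were nearly alike. Across the tested genes their log2 values had a Pearson correlation of 0.997, against 0.89 and 0.885 between either of them and line 1 and 0.957 between the ΔHD2/fl lines. Their read counts still differed beyond counting error (chi-square over degrees of freedom of 13.01, against 128.9 for the ΔHD2/fl pair). Separate cultures of 1 line would differ in this way too, so that they are independent lines was not shown, and counts are also given with them averaged. For this reason every gene below was asked to show line 1 on the same side as lines 2 and 3.

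Of 5 epithelial markers, Cdh1, Krt8, Krt18 and Epcam were above 100 CPM in all 5 libraries, whereas Krt19 was at 2.62 and 0.674 CPM in ΔHD2/fl, 0.231 CPM in ΔHD2/- line 1 and without reads in lines 2 and 3. Cdh1 stood at 916 and 1189 CPM in ΔHD2/fl lines 1 and 2 and at 935, 564 and 534 CPM in ΔHD2/- lines 1, 2 and 3. The summed CPM of 4 basal markers (Krt5, Krt14, Trp63 and Itga6) lay between 8274 and 13451 in the ΔHD2/fl lines and between 1261 and 3991 in the ΔHD2/- lines. Krt14 made up most of this sum, and the other 3 markers overlapped between the groups, with Itga6 at 292 and 198 CPM in ΔHD2/fl and at 407 CPM in ΔHD2/- line 1. Of 7 fibroblast markers, Lum had 0 reads in all 5 libraries, and the sum was 4.44 to 187 CPM in ΔHD2/fl and 0.747 to 16.1 CPM in ΔHD2/-. The higher ΔHD2/fl value was that of line 1, with Col1a1 at 88.9 CPM and Pdgfrb at 46.5 CPM. The sum of 7 leukocyte markers was 8.17 to 10.4 CPM in ΔHD2/fl and 3.32 to 4.7 CPM in ΔHD2/-, with Cd3e and Adgre1 at 0 reads throughout, and those of 4 endothelial and 4 adipocyte markers were at or under 1.11 CPM in every library. For 3 skeletal muscle markers the sum was 1.65 to 22.5 CPM in ΔHD2/fl and 0.462 to 1.16 CPM in ΔHD2/-. The part of these markers in the differences below was not tested, and in such bulk samples fewer cells of a kind and less RNA per cell cannot be told apart.

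Levels of the targeted genes did not separate the genotypes. Bcl9 (chr3:97203658-97298402, GRCm38) was at 32.6 and 52.4 CPM in ΔHD2/fl and 43.9, 50.6 and 48.0 CPM in ΔHD2/- under Wnt3a. Bcl9l (chr9:44482738-44511906) was at 168 and 201 CPM against 204, 109 and 122 CPM. The groups overlapped for both genes, with limma adjusted p of 0.943 and 0.884. Reads were summed over whole genes and the ΔHD2 copies still make RNA, so these values do not check the loss of the floxed copy.

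Among the genes called under Wnt3a, most were lower in ΔHD2/-. A gene was called at a limma adjusted p of at most 0.05 (Benjamini-Hochberg) and an absolute difference of at least 1 between group means of log2(CPM + 1). Because of the added 1, fold changes of low genes come out too small on this scale. Of 24454 genes listed, 13270 had at least 1 CPM in at least 2 of the 27 libraries and were tested. In ΔHD2/-, 85 were lower (0.641% of those tested) and 6 were higher (0.0452%), 91 in all (0.686%), and 1146 had an unadjusted p under 0.05. In all 91 genes the 3 ΔHD2/- libraries lay outside the range of the ΔHD2/fl libraries with line 1 on the same side as the others. Groups without overlap were found in 30.9% of all tested genes, nearly evenly split between those with all ΔHD2/- libraries below (15.6%) and above (15.4%), so the imbalance was seen in the called genes and not across all genes. The differences ran from -7.05 to -1.01 among the lower genes (median -2.74) and from 1.08 to 2.67 among the higher ones. Of the 85 lower genes, 58 were under 1 CPM in all 3 ΔHD2/- libraries, 10 had no read in any of them, and 25 had reads in line 1 but none in lines 2 and 3.

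These calls rested on the spread pooled over all 12 groups, and lines 2 and 3 carried much of them. With those lines averaged into 1, 26 genes were called, all lower and all among the 91. Without line 2, and likewise without line 3, 27 of the 91 were called and no other gene. Without line 1 the number rose to 682, with 89 of the 91 among them. In a fit of the 9 Wnt3a libraries alone 2 genes were called, in a fit of the 5 compared libraries 1, which was not among the 91, and edgeR on reads recovered from the CPM values called 6. Without ΔHD2/fl line 1 there were 90 calls, 40 of them among the 91, and without ΔHD2/fl line 2 there were 61, 35 of them among the 91. Some of the 91 no longer passed the filter without a ΔHD2/fl line and were then not tested.

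Line 1 was the ΔHD2/- line least like the other ones. In 80 of the 85 lower genes, line 1 lay at least 2-fold below the lower of the ΔHD2/fl libraries on the log2(CPM + 1) scale. Its margin ran from 0.61 to 7.91 with a median of 2.16. It was the highest of the 3 ΔHD2/- libraries in 56 of the 85. Adam12, a metalloprotease chosen here after its values were seen, was at 190.5 and 169 CPM in ΔHD2/fl, 66.8 CPM in line 1, and 8.76 CPM (line 2) and 11.9 CPM (line 3).

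**Figure D1:**
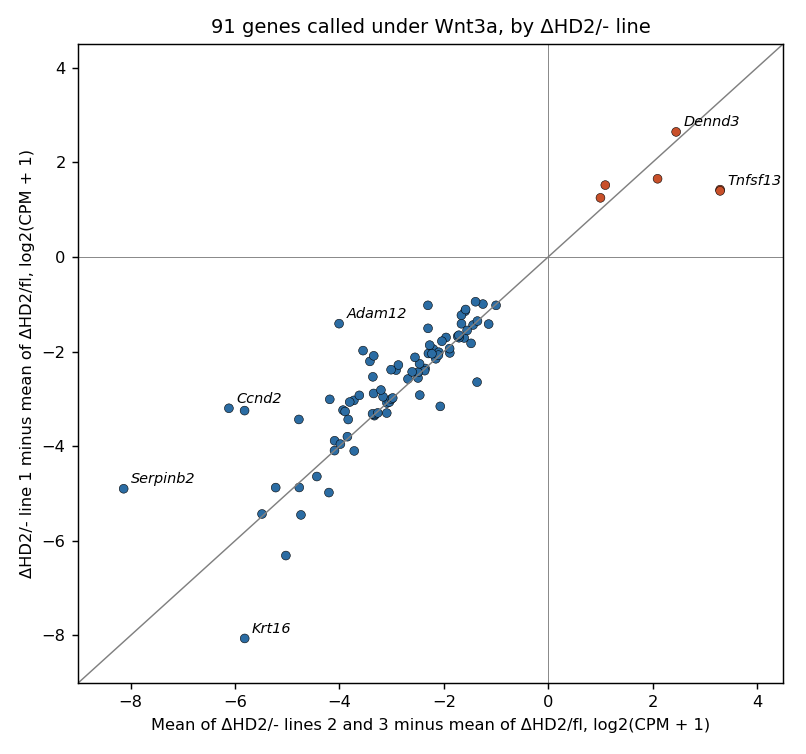
Difference from the mean of the ΔHD2/fl lines under Wnt3a on the log2(CPM + 1) scale for the 91 called genes, as the mean of ΔHD2/- lines 2 and 3 (x axis) and as line 1 (y axis). Blue points are the 85 lower and red points the 6 higher genes, and the diagonal marks equal differences. All points lie in the lower left or upper right, Serpinb2 and Ccnd2 lie above the diagonal and Krt16 below it.

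A call that rested on lines 2 and 3 alone was often not shared by line 1. Of the 682 genes called without line 1, 482 were lower and 200 higher. Line 1 was below both ΔHD2/fl libraries in 257 of the 482 (53.3%, against 37.0% of all tested genes) and above both in 113 of the 200 (56.5%, against 35%). The ΔHD2/fl libraries are shared by both sides of this comparison, so the excess has no test. Genes of the mesenchymal state show how far line 1 could stand from the others. Vim, the intermediate filament vimentin, was at 427 and 76.7 CPM in ΔHD2/fl, 643.5 CPM in line 1, but 1.78 CPM in line 2 and 1.61 CPM in line 3. Tnc, the matrix protein tenascin C, was at 725 and 877 CPM in ΔHD2/fl, 1754 CPM in line 1, against 0.0415 CPM in line 2 and no read in line 3. Neither was called. Of 20 mesenchymal genes 0 were called, which is near the 0.686% of all tested genes and no result about them, and 6 had all ΔHD2/- libraries below both ΔHD2/fl libraries (15.6% of all).

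Most of the 91 differences were also seen without Wnt3a. Between the untreated lines 73 genes were called (0.55%), 70 lower (0.528%) and 3 higher (0.0226%) in ΔHD2/-. Called under both conditions were 42 genes, 40 lower and 2 higher. A further 35 were called under Wnt3a only but differed at least 1.5-fold the same way without it, 29 of them at an unadjusted p under 0.05. For these 77 genes an absence from the untreated cells was not shown. The remaining 14, all lower, differed less than 1.5-fold on the log2(CPM + 1) scale or, in 1 case, the opposite way between the untreated lines. In the other direction, 31 genes were called in the untreated cells only, 30 of them lower, and in 27 of those 30 the ΔHD2/- libraries were also below both ΔHD2/fl libraries under Wnt3a.

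**Figure D2:**
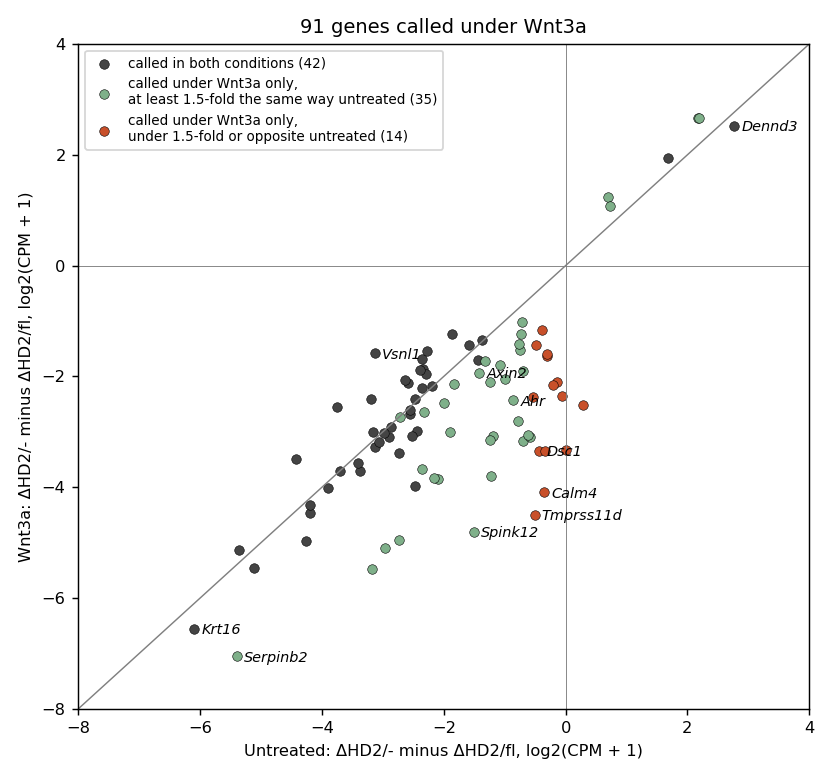
ΔHD2/- minus ΔHD2/fl on the log2(CPM + 1) scale for the 91 genes called under Wnt3a, without cytokine (x axis) and under Wnt3a (y axis), with the diagonal of equal differences. The 42 genes called in both conditions (dark) lie along the diagonal, and the 14 with less than 1.5-fold or an opposite difference without cytokine (red) lie below it near 0 on the x axis.

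The 14 genes under 1.5-fold or opposite on that scale were at very low levels before Wnt3a. With Wnt3a all of them were at 1 CPM or more in both ΔHD2/fl lines and in no ΔHD2/- line. In 13 of the 14, every untreated library of the 5 lines was under 1 CPM, the exception being Dnase1l2. They are Dsc1, Slit1, Sstr2, Il1f9, Tmprss11d, Rnf222, Idi2, Adgrf2, Dnase1l2, Klk5, Lce1b, Sdr9c7, Lypd6b and Calm4. At such levels the added 1 shrinks fold differences. Untreated Tmprss11d, for example, was at 0.345 and 0.555 CPM in ΔHD2/fl against 0.0437, 0 and 0 CPM in ΔHD2/-, whereas Idi2 had no read in either group. An absence of the difference without cytokine was thus not shown for the 14 either. All but Dnase1l2 and Lypd6b, 12 of the 14, entered the test only through the ΔHD2/fl Wnt3a libraries, as did 72 tested genes and 17 of the 85 lower genes, Scel and Spink12 among them. A difference in that direction was built into their selection, so their number and their calls support nothing by themselves, and their values are given as a description without p-values. With lines 2 and 3 averaged, Dsc1, Sstr2, Idi2, Dnase1l2, Klk5 and Lypd6b were still called. Without ΔHD2/fl line 1 there were 5 of the 14 called and without ΔHD2/fl line 2 there were 3, with Dsc1, Sstr2 and Lce1b no longer tested.

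Tmprss11d, a transmembrane serine protease of surface epithelia (chr5:86302854-86373387), had the largest difference of the 14. It was at 0.345 and 0.555 CPM in the untreated ΔHD2/fl lines and at 14.6 and 38.9 CPM with Wnt3a. In ΔHD2/- with Wnt3a it was at 0, 0.207 and 0.107 CPM, a difference of -4.50 on the log2 scale (SE 0.77). All 3 ΔHD2/- libraries lay below the ΔHD2/fl libraries of either condition once Wnt3a was given.

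Calm4, a calmodulin-like calcium-binding protein of the skin (chr13:3837757-3838671), was at 0.215 and 0.333 CPM in the untreated ΔHD2/fl lines and reached 18.3 and 14.1 CPM with Wnt3a. It had no read in any ΔHD2/- library of either condition. Against 3 reads in the shallowest library the ΔHD2/fl mean was at least 130-fold higher.

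Idi2, an isopentenyl diphosphate isomerase of isoprenoid synthesis (chr13:8952863-8960935), had no read in any of the 5 untreated ΔHD2 libraries. With Wnt3a it was at 3.46 and 21.7 CPM in ΔHD2/fl and still without a read in ΔHD2/-, where it was at least 101-fold lower. Il1f9, which encodes the cytokine interleukin 36γ (chr2:24186476-24193567), was at 1.89 and 8.09 CPM against 0 reads, at least 40.1-fold lower.

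Klk5 and Dsc1 belong to the machinery that holds and sheds the outer epidermal layers. Klk5 is a kallikrein protease of the stratum corneum (chr7:43834157-43851181). It was at 11.4 and 8.96 CPM in ΔHD2/fl and 0.116, 0.124 and 0.0358 CPM in ΔHD2/- (difference -3.35, SE 0.36). Dsc1, the desmocollin of upper epidermal desmosomes, was at 7.05 and 12 CPM against 0, 0 and 0.0358 CPM (difference -3.34, SE 0.23). Without cytokine both genes were under 0.5 CPM in every ΔHD2 library.

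Other members act in the last steps of keratinocyte differentiation. Dnase1l2, a nuclease that degrades DNA in cornifying cells (chr17:24440087-24443763), was at 8.90 and 9.52 CPM in ΔHD2/fl and 0.732, 0.954 and 0.680 CPM in ΔHD2/- (difference -2.52, SE 0.40, limma adjusted p = 0.00336). It was the 1 gene of the 14 with an opposite sign without cytokine (0.28), where lines 2 and 3 were at 1.80 and 1.88 CPM. Sdr9c7, a dehydrogenase of the epidermal lipid barrier (chr10:127898535-127911761), was at 4.23 and 2.78 CPM against 0 reads in all 3 lines. Lce1b, a late cornified envelope protein (chr3:92655650-92656926), was at 1.41 and 1.35 CPM against 0.193, 0 and 0 CPM. It belongs to a family of close copies, and with uniquely aligned reads only, its level is uncertain.

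The remaining genes are of mixed roles. Lypd6b, of the Ly6 family, was at 6.56 and 7.77 CPM in ΔHD2/fl against 0.539, 0.622 and 0.537 CPM. Sstr2, a somatostatin receptor, was at 2.94 and 1.94 CPM against 0.0385, 0.124 and 0.107 CPM. Slit1, a secreted axon guidance protein, was at 2.62 and 1.03 CPM against 0 reads. The ubiquitin ligase family gene Rnf222 and the adhesion receptor gene Adgrf2 were at 2.05 to 4.01 CPM in ΔHD2/fl and at most 0.501 CPM in ΔHD2/-.

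**Figure D3:**
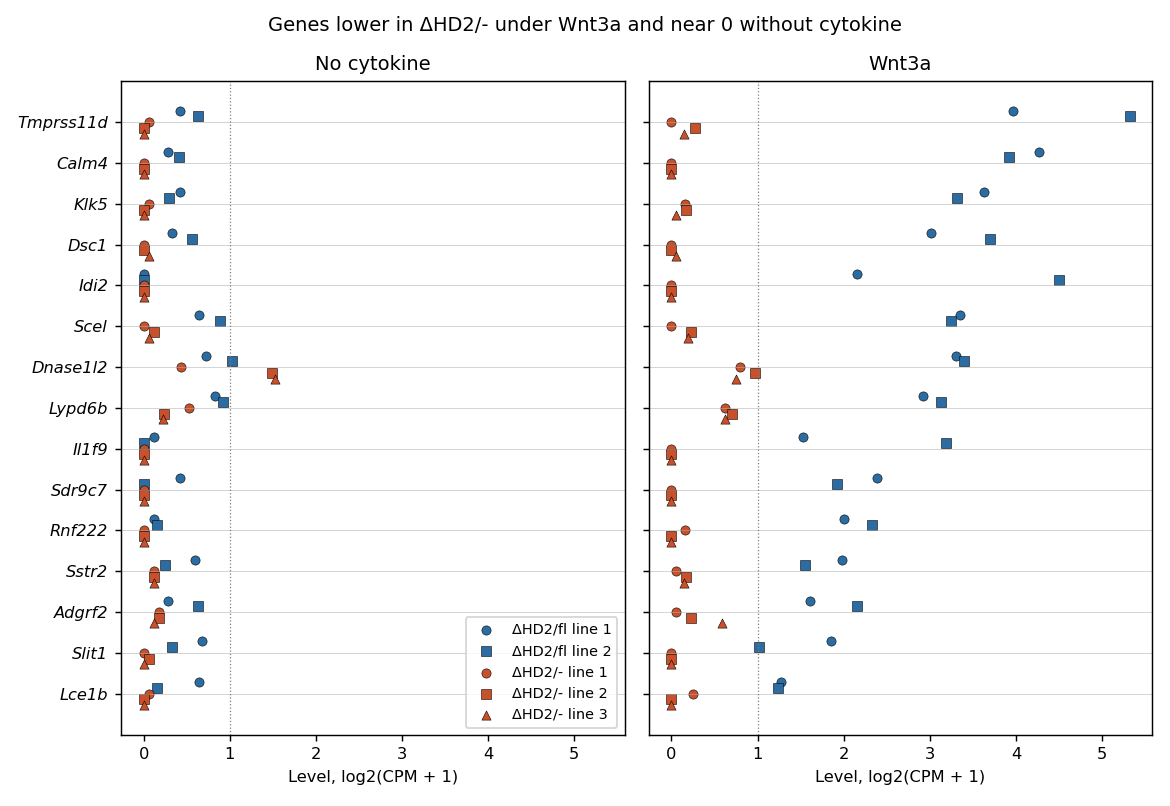
Level in log2(CPM + 1) of Scel and of the 14 genes called under Wnt3a with an untreated difference under 1.5-fold or opposite, without cytokine (left) and with Wnt3a (right), 1 symbol per library, blue for ΔHD2/fl, red for ΔHD2/- and a shape for each line number. The dotted line marks 1 on that scale, which is 1 CPM. With Wnt3a the blue symbols of every gene lie at or right of the line and the red ones left of it.

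That a gene is called under Wnt3a and not without it does not show that the difference changed, so the change itself was tested as an interaction, the response to Wnt3a in ΔHD2/- minus that in ΔHD2/fl. Only Scel and Dsc1 were called in it (0.0151% of genes), and 74 genes had an unadjusted p under 0.05. Both reached 1 CPM in the 2 ΔHD2/fl Wnt3a libraries and in no other of the 27. They entered the test only through the group where they are high, so a smaller response in ΔHD2/- was built into their selection and the calls are no independent support for it. Scel encodes sciellin, a precursor of the cornified envelope (chr14:103513061-103613346). It was at 9.22 and 8.49 CPM in ΔHD2/fl and 0, 0.166 and 0.143 CPM in ΔHD2/- with Wnt3a, and at 0.56 and 0.851 against 0, 0.0901 and 0.0419 CPM without it. Its response on the log2 scale was 2.71 and 2.36 in the ΔHD2/fl lines and 0.00, 0.10 and 0.13 in the ΔHD2/- lines (interaction -2.46). For Dsc1 the responses were 2.68 and 3.13 against 0.00, 0.00 and -0.01 (interaction -2.91). For both genes the response was above 2 in each ΔHD2/fl line and at most 0.13 in each ΔHD2/- line. Without either ΔHD2/fl line both genes fell under the filter and were not tested. Neither interaction was called with a pseudocount of 0.1, with edgeR or in a fit of the compared groups only, and both were called with no filter on low values.

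Libraries of 1 line are not independent between treatments, and a fit with cell line as a block, chosen after seeing the data, uses this. It called 16 interactions (0.121%), 9 negative (0.0678%) and 7 positive. Among the 14 genes it called Dsc1, Sstr2, Idi2, Dnase1l2 and Klk5. All of these but Dnase1l2 passed the filter only through the ΔHD2/fl Wnt3a libraries, so these calls too are no independent support for a smaller response. Scel was called in it too. Spink12, a Kazal-type protease inhibitor gene called under Wnt3a, was at 13.3 and 63.7 CPM in ΔHD2/fl and 0.0385 to 0.124 CPM in ΔHD2/- under Wnt3a, and at 0.474 and 4.96 CPM in the untreated ΔHD2/fl lines.

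Genes of the cornified envelope stood at lower values in ΔHD2/-. Of 20 such genes tested, 5 were called and lower (0.641% of all tested genes were), Krtdap, Scel, Sprr2h, Calml3 and Ivl, and none was called higher. In 16 of 20 all ΔHD2/- libraries were below both ΔHD2/fl libraries (15.6% of all tested genes). The median difference was -2.57 under Wnt3a and -0.95 without cytokine, against -0.01 and -0.03 over all tested genes. Its median response to Wnt3a was 1.74 and 1.57 in the ΔHD2/fl lines and 0.06, 0.47 and 0.14 in ΔHD2/- lines 1, 2 and 3. Without cytokine none of the 20 was called. Scel entered the test only through the ΔHD2/fl Wnt3a libraries. Without it, a count added after seeing the data, 4 of 19 were called and lower, 15 were below both ΔHD2/fl libraries and the medians were -2.51 under Wnt3a and -1.0 without cytokine. Whether the list's difference changed with Wnt3a was not tested.

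Krtdap, a secreted protein of differentiating keratinocytes (chr7:30787905-30791089), was at 10.4 and 24.8 CPM in ΔHD2/fl against 0, 0.539 and 0.107 CPM (difference -3.85, SE 0.63, limma adjusted p = 0.00465). Calml3, a calmodulin-like gene (chr13:3802893-3804318), was at 4.75 and 17.3 CPM against 0.771, 0 and 0 CPM. Ivl, the envelope protein involucrin (chr3:92570899-92573790), was at 3.34 and 4.60 CPM against 0.732, 0 and 0 CPM. Sprr2h, a small proline-rich envelope protein of a family of close copies (chr3:92385685-92387324), was at 6.2 and 9.04 CPM against 0 reads in all 3 lines. For Calml3 and Ivl, line 1 was the 1 ΔHD2/- line with reads.

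None of the 4 most abundant members of the list was called. Ppl, the plakin periplakin, was at 365 and 474 CPM in ΔHD2/fl and 271.5, 461 and 443.5 CPM in ΔHD2/-, and Evpl, envoplakin, at 174 and 491 CPM against 124.5, 556 and 574 CPM. Sprr1a did not overlap between the groups but was split among the ΔHD2/- lines. It was at 318.5 and 479 CPM in ΔHD2/fl and at 1.89 CPM in line 1, but at 197.5 and 198 CPM in lines 2 and 3, which had been at 1.22 and 2.18 CPM without cytokine (limma adjusted p = 0.709).

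**Figure D4:**
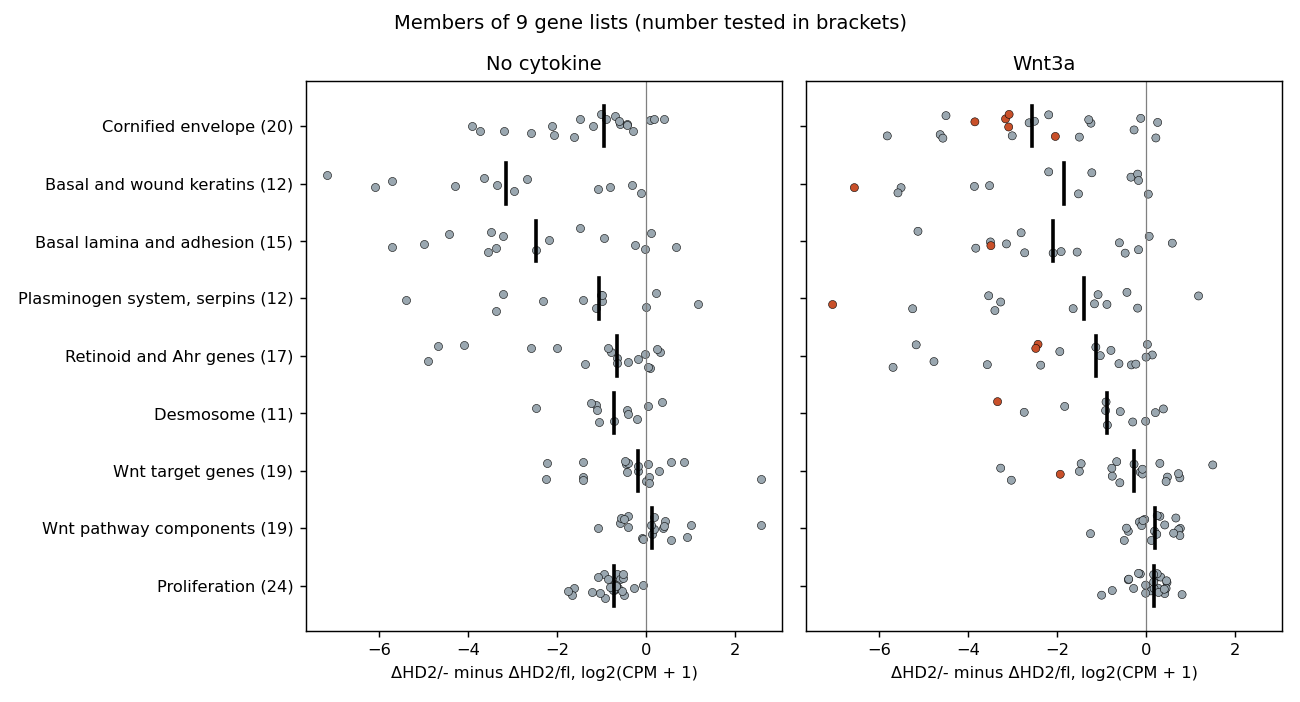
ΔHD2/- minus ΔHD2/fl on the log2(CPM + 1) scale for each tested member of 9 gene lists, without cytokine (left) and with Wnt3a (right), with a black bar at the list's median and red points for genes called under Wnt3a. The cornified envelope median moves from -0.95 to -2.57, the keratin median from -3.15 to -1.86 and the proliferation median from -0.72 to 0.18.

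Promoters are shown for Scel, Tmprss11d, Krtdap and Ivl, which were called and lower in ΔHD2/- under Wnt3a and hold the AP-1 letters described below. Each runs from 250 bases before to 50 after a RefSeq transcript start on GRCm38.p6 and is written 5′ to 3′ on the gene's strand. Only 1 start per gene was used, which need not be the outermost. The whole Scel window lies inside the gene's span given above. Of the 91 called genes 69 had a promoter in the table used, and of the 14 plus Scel 11. The letters searched on both strands were TCAAAG (TCF/LEF), TGANTCA (AP-1), AACNNGTT (Grainyhead-like) and GCGTG (AHR), and capitals mark every match, which in Scel joins an overlapping AHR and AP-1 match. The windows are chr14:103513091-103513390 on the + strand for Scel, chr5:86373338-86373637 on the - strand for Tmprss11d, chr7:30787655-30787954 on the + strand for Krtdap and chr3:92573686-92573985 on the - strand for Ivl.
Scel: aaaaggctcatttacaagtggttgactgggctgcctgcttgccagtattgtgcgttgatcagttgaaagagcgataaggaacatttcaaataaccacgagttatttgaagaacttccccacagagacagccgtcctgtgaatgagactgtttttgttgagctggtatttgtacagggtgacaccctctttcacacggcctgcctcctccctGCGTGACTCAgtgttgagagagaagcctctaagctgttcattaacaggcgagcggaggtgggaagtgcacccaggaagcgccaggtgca
Tmprss11d: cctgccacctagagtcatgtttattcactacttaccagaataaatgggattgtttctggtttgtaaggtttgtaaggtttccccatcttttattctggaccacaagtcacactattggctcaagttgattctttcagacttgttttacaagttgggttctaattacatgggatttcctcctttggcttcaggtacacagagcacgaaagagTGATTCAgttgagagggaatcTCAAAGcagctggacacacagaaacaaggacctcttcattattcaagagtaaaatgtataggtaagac
Krtdap: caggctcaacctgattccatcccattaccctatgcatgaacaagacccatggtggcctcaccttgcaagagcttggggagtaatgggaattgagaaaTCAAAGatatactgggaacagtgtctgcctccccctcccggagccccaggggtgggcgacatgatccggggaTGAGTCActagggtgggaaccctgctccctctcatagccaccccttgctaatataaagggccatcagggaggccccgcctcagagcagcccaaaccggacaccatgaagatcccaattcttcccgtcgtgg
Ivl: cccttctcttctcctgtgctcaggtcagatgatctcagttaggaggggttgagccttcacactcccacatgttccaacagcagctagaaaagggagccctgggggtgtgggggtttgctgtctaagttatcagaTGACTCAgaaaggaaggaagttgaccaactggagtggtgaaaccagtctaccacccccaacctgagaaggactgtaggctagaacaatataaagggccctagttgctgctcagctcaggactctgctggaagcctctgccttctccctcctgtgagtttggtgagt

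The AP-1 letters began 36 bases before the transcript start in Scel, 39 in Tmprss11d, 81 in Krtdap and 116 in Ivl. They were found in 13 of the 69 promoters of called genes (18.8%), against 7.93% of all 27025 promoters in the table, and in 3 of the 11 (27.3%). The TCF/LEF letters were in 11 of the 69 (15.9%, against 16.2% of all), the AHR letters in 29 (42.0%, against 32.5%) and the Grainyhead-like letters in 3 (4.35%, against 4.19%). The Axin2 window (chr11:108920099-108920398), which lies inside the gene's own span, held none of the 4. These shares are a description of the letters in short windows. The genes of the AP-1 factors, 10 in number, had a median difference of -0.09, and 0 called is near the 0.686% of all tested genes. Fosl2, for example, was at 321 and 378 CPM against 180, 402 and 391 CPM.

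Axin2 was the 1 called gene of 19 tested Wnt target genes (0.641% of all tested genes were called and lower). Its position is chr11:108917828-108950783. Under Wnt3a it was at 72.7 and 78.0 CPM in ΔHD2/fl and 17.7, 21.0 and 18.4 CPM in ΔHD2/-, with little spread in either group (difference -1.93, SE 0.37, limma adjusted p = 0.0153). Without cytokine it was at 2.97 and 2.7 CPM against 0.131, 0.675 and 0.544 CPM (difference -1.42, limma adjusted p = 0.137). Every line had more Axin2 with Wnt3a, by 4.21 and 4.42 on the log2 scale in ΔHD2/fl and 4.05, 3.71 and 3.65 in ΔHD2/- (interaction -0.51, limma adjusted p = 1.0). The groups did not overlap in either condition, the untreated difference was not called, and a smaller response in ΔHD2/- was not shown. The call under Wnt3a was lost without either ΔHD2/fl line, without line 2 or 3, with these lines averaged, with a pseudocount of 0.1, with cell line as a random effect, with edgeR and in both fits of fewer libraries.

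**Figure D5:**
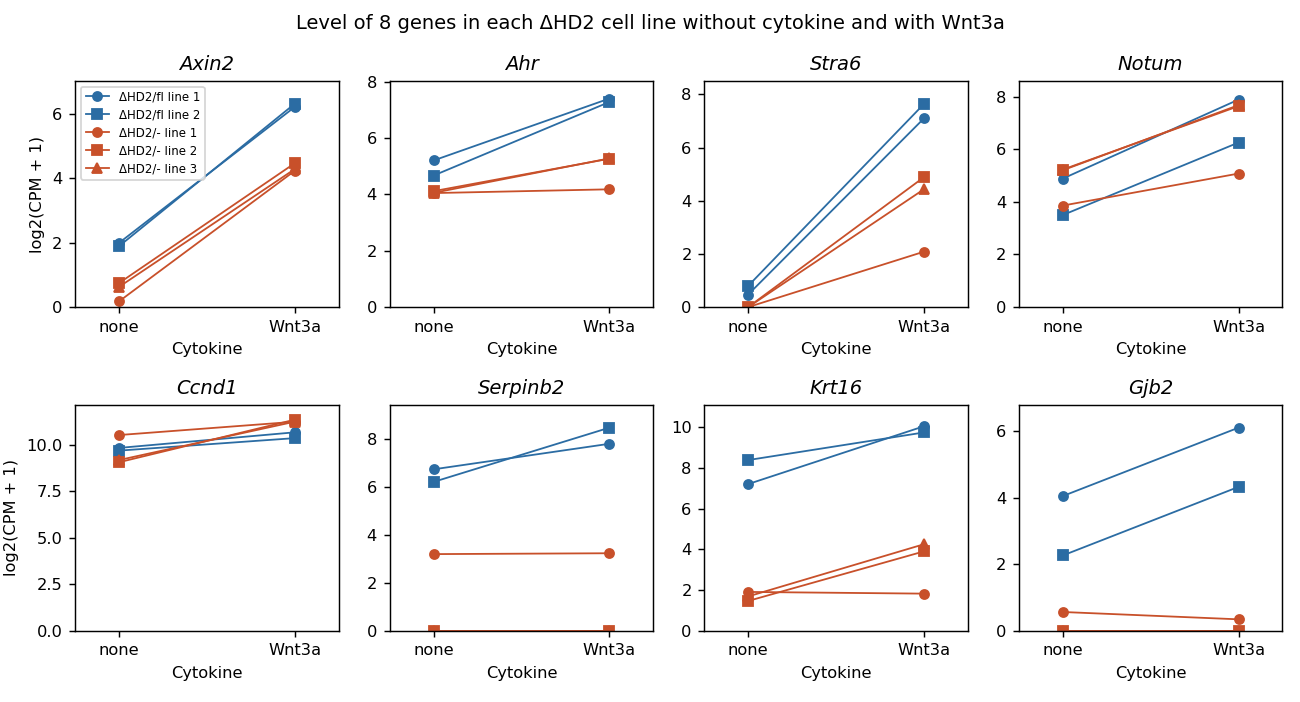
Level in log2(CPM + 1) of 8 genes without cytokine and with Wnt3a, 1 line per cell line, blue for ΔHD2/fl and red for ΔHD2/-, with a symbol for each line number. Axin2 runs nearly parallel in the 5 lines, whereas the slope of Ahr and Stra6 is steeper in the blue lines, and the red lines of Serpinb2 and Gjb2 stay flat.

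The other Wnt targets were not called, and their values went both ways. In 4 of the 19, Axin2 included, all ΔHD2/- libraries were below both ΔHD2/fl libraries (15.6% of all tested genes), and in 2 they were above (15.4%). Apcdd1, a Wnt inhibitor of the cell membrane named here after its values were seen, was at 19.4 and 33.6 CPM in ΔHD2/fl, 17 CPM in line 1, 0.0415 CPM in line 2 and 0.107 CPM in line 3 (difference -3.27, limma adjusted p = 0.571). Notum, a secreted enzyme that inactivates Wnt ligands, was at 235.5 and 75.3 CPM in ΔHD2/fl and 32.7, 198 and 203 CPM in ΔHD2/-. Ccnd1, cyclin D1, was at 1614 and 1299 CPM against 2389, 2584 and 2397 CPM, all above ΔHD2/fl (difference 0.76, limma adjusted p = 0.838). Myc was at 213 and 229 CPM against 171, 226 and 233 CPM, and Rnf43, a ubiquitin ligase for Wnt receptors, at 1.05 and 7.02 CPM against 1.32 to 2.23 CPM. Lef1, a TCF/LEF factor, was at 0.362 and 0.0397 CPM in ΔHD2/fl, without reads in line 1, and at 1.54 and 2.00 CPM in lines 2 and 3, which had 19.1 and 18.5 CPM without cytokine. The median of the 19 targets was -0.27 under Wnt3a and -0.17 without. Of 19 genes for the pathway's receptors, β-catenin complex and coactivators, 0 were called, near the 0.686% of all tested genes. All ΔHD2/- libraries were above both ΔHD2/fl libraries in 5 (15.4% of all) and below in 2 (15.6%), and the median was 0.19. Ctnnb1, β-catenin, was at 1247 and 2530 CPM in ΔHD2/fl and 1027, 5270.5 and 5166 CPM in ΔHD2/-.

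The aryl hydrocarbon receptor gene Ahr (chr12:35497979-35534989) was lower in ΔHD2/- under Wnt3a. It encodes a ligand-activated factor that induces xenobiotic enzymes. Under Wnt3a it was at 168 and 154 CPM in ΔHD2/fl and 17.1, 37.4 and 37.7 CPM in ΔHD2/- (difference -2.43, SE 0.37, limma adjusted p = 0.0024), and it was also called without any 1 of the 5 lines, with lines 2 and 3 averaged and with edgeR, but not with cell line as a random effect or in the fits of fewer libraries. Without cytokine it was at 35.8 and 24.4 CPM against 15.5, 16.3 and 15.6 CPM (difference -0.86, limma adjusted p = 0.523). The response was 2.20 and 2.61 in ΔHD2/fl, 0.13 in line 1 and 1.15 and 1.22 in lines 2 and 3 (interaction -1.57, limma unadjusted p = 0.00812, adjusted p = 1.0).

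Genes of Ahr and retinoid metabolism were mostly at lower values with it. Of 17 tested, Ahr and Cyp1a1 were called and lower (0.641% of all tested genes were), 11 had all ΔHD2/- libraries below both ΔHD2/fl libraries (15.6% of all), and the median was -1.13 under Wnt3a and -0.65 without cytokine. Cyp1a1, the monooxygenase best known as an Ahr target (chr9:57687928-57703824), was at 9.22 and 2.10 CPM against 0.0385, 0 and 0 CPM (difference -2.48, SE 0.55, limma adjusted p = 0.0429). Aldh3a1, an aldehyde dehydrogenase (chr11:61208510-61218418), was at 3730 and 923 CPM against 41.4, 68.0 and 69.3 CPM and was lower under both conditions (-4.98 and -4.26). Stra6, the membrane receptor for retinol-binding protein, was near 0 without cytokine, at most 0.74 CPM. With Wnt3a it was at 136 and 199 CPM in ΔHD2/fl and 3.24, 28.6 and 20.6 CPM in ΔHD2/-, without overlap but not called (difference -3.57, SE 1.00, limma adjusted p = 0.159).

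Keratins of wounded and basal epithelium stood at lower values in ΔHD2/- with and without Wnt3a. Of 12 tested, Krt16 was the 1 called and lower under Wnt3a (0.641% of all tested genes were) and 3 were without cytokine (0.528%), and 8 of 12 had all ΔHD2/- libraries below both ΔHD2/fl libraries under Wnt3a (15.6% of all). Krt16, a keratin induced in wounded and hyperproliferative epidermis (chr11:100246091-100248902), was at 1050.5 and 851 CPM against 2.54, 13.9 and 18.0 CPM (difference -6.56, SE 1.12, limma adjusted p = 0.00625). Krt14 was at 7842 and 9424 CPM against 814, 2635 and 3097 CPM and Krt6a at 1205 and 1810.5 CPM against 11.2, 47.3 and 49.0 CPM, without overlap and not called. Lines 2 and 3 had higher levels with Wnt3a than without where line 1 did not or changed little. Krt6b went from 0.218 to 0.462 CPM in line 1 but reached 113 and 115 CPM in lines 2 and 3, from at most 0.502 CPM without cytokine. The median difference of the list was smaller under Wnt3a (-1.86) than without (-3.15). Krt42, next to Krt16 on chromosome 11, was also called and lower (-5.45), and reads of such close copies are uncertain.

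Serpinb2, plasminogen activator inhibitor 2 (chr1:107500892-107525600), had the largest difference of all. It was at 221 and 353 CPM in ΔHD2/fl and at 8.40, 0 and 0 CPM in ΔHD2/- (difference -7.05, SE 1.35, limma adjusted p = 0.0153). Without cytokine it was at 105 and 72.9 CPM against 8.17, 0 and 0 CPM (-5.40, limma adjusted p = 0.113). Line 1 thus kept a level that lines 2 and 3 lacked. It was the 1 called gene of 12 in the plasminogen system and serpin families (0.641% of all tested genes were called and lower). In 9 of the 12 all ΔHD2/- libraries were below both ΔHD2/fl libraries (15.6% of all), and the median was -1.40 under Wnt3a and -1.06 without cytokine. Plau, the urokinase gene, was at 81.6 and 118.5 CPM in ΔHD2/fl, 352.5 CPM in line 1, 0.539 CPM in line 2 and 0.537 CPM in line 3.

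Gjb2, the gap junction protein connexin 26 (chr14:57098602-57104702), was at 68.1 and 19.1 CPM against 0.27, 0 and 0 CPM (difference -5.10, SE 1.14, limma adjusted p = 0.0455), and at 15.6 and 3.81 CPM against 0.48, 0 and 0 CPM without cytokine. Cdh3, P-cadherin, was at 20.3 and 75.3 CPM against 3.93, 2.07 and 2.04 CPM (difference -3.49, limma adjusted p = 0.0265) and was the 1 called gene of 15 for the basal lamina and basal cell state (0.641% of all tested genes were called and lower). In 8 of the 15 all ΔHD2/- libraries were below both ΔHD2/fl libraries (15.6% of all), and the list median was -2.09. Of 11 desmosomal genes Dsc1 was called, and 5 had all ΔHD2/- libraries below both ΔHD2/fl libraries (15.6% of all). Dsc1 entered the test only through the ΔHD2/fl Wnt3a libraries, and without it 0 of 10 were called and 4 lay below. Dsp, desmoplakin, was at 1069 and 1582 CPM against 612, 990.5 and 1080 CPM, and Pkp1, plakophilin 1, at 972 and 1375 CPM against 501, 716 and 711 CPM.

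Ccnd2 and Eda2r were called and lower in both conditions. Ccnd2, cyclin D2 (chr6:127125162-127152188), was at 94.0 and 77.4 CPM against 8.40, 0.083 and 0.429 CPM and was lower by a like amount without cytokine (-5.14 and -5.37). Eda2r, a receptor of the TNF family and a p53 target (chrX:97333837-97377234), was at 112 and 70.8 CPM against 1.85, 3.65 and 4.15 CPM (-4.46 and -4.19), the 1 called gene of 20 for p53 targets and cyclin-dependent kinase inhibitors under Wnt3a (0.641% of all tested genes were called and lower), where 3 of the 20 were called and lower without cytokine (0.528% of all). Cwh43 and Klhdc8a were called under Wnt3a only, but both are among the 35 genes that differed at least 1.5-fold the same way without it. Cwh43 (chr5:73406051-73453435) was at 74.9 and 27.5 CPM against 0.0771, 0.083 and 0 CPM, and at 20.9 and 2.74 CPM against 0 reads without cytokine. Klhdc8a, a kelch-repeat protein (chr1:132298490-132307357), was at 62.6 and 48.9 CPM against 4.93, 0 and 0 CPM.

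The 6 higher genes were led by a gene of the TNF ligand family. Tnfsf13, which encodes the cytokine APRIL (chr11:69682577-69685554), was at 2.66 and 1.94 CPM in ΔHD2/fl and 7.63, 31.3 and 31.0 CPM in ΔHD2/- (difference 2.66, SE 0.57, limma adjusted p = 0.0367). Tnfsfm13 is the read-through transcript that spans the same locus, so its call (2.67) is not a separate gene. Insig1, which holds back sterol synthesis (chr5:28071412-28078662), was at 23.3 and 24.5 CPM against 77.2, 104 and 107 CPM (difference 1.95, SE 0.32, limma adjusted p = 0.00453). Dennd3, a Rab exchange factor (chr15:73512560-73572242), was at 2.42 and 6.78 CPM against 31.2, 27 and 27.4 CPM. Bcl2l11, the pro-apoptotic protein Bim (chr2:128126038-128162547), was at 16.6 and 12.6 CPM against 43.3, 34.4 and 29.8 CPM, and Anxa11, an annexin, at 42.8 and 44.7 CPM against 105, 90.0 and 87.1 CPM. Line 1 was the highest of all 5 libraries for Dennd3, Bcl2l11 and Anxa11. Insig1 and Dennd3 were called without cytokine too. With lines 2 and 3 averaged, none of the 6 was called.

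Proliferation genes had opposite signs of the median difference with and without Wnt3a, and whether the list's difference changed was not tested. Of 24 tested, 0 were called (0.686% of all tested genes were), the median was 0.18 under Wnt3a and -0.72 without cytokine, and in all 24 the interaction was positive (50.7% of all tested genes). The median response was -0.06 and -0.48 in ΔHD2/fl, 0.08 in ΔHD2/- line 1 and 0.99 and 0.84 in lines 2 and 3. Cdk1, the mitotic kinase, was at 351 and 215 CPM in untreated ΔHD2/fl and 302.5 and 149 CPM with Wnt3a, and in lines 2 and 3 at 131 and 168 CPM untreated and 295 and 286 CPM with Wnt3a. In line 1 it was at 261 CPM without cytokine and 274 CPM with Wnt3a.

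Lists of luminal, epidermal growth factor, interferon, antigen presentation and innate defence genes, 11 to 19 tested in each, had no called member under Wnt3a, which at 0.686% of all tested genes says nothing about them. The 22 cytokine genes had 1 called and higher, Tnfsf13 (0.0452% of all). In the innate defence list, Lcn2, the iron-binding protein lipocalin 2, was at 7.05 and 12.3 CPM in ΔHD2/fl and 157, 448 and 341 CPM in ΔHD2/- (difference 4.81, limma adjusted p = 0.143). In the epidermal growth factor list, Egfr was at 183 and 85.7 CPM against 41.1, 45.6 and 44.8 CPM (-1.5, limma adjusted p = 0.304). Of the 38 Wnt3a-regulated genes that the study published as affected by loss of Bcl9/Bcl9L binding, 35 were tested, Idi2, Ahr and Calml3 were called and lower (0.641% of all tested genes were) and 16 had all ΔHD2/- libraries below both ΔHD2/fl libraries (15.6% of all), with a median of -1.34 and -0.67 without cytokine. Idi2 entered the test only through the ΔHD2/fl Wnt3a libraries, and without it 2 of 34 were called and 15 lay below. The study drew that list from ΔHD2/- lines and from lines with a β-catenin mutation (D164A) that blocks Bcl9/Bcl9L binding. Its figure legend sets both against wild-type control lines at a fold change of at least 1.5, so contrast and thresholds differ from those here. The list was chosen partly on these libraries and is no independent evidence of its direction.

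Several called genes were neighbours. Serpinb10, a further serpin gene chosen here after its values were seen, starts 3.39 kb from Serpinb2 and was called and lower (-1.90). Sprr2h, Ivl and Lce1b lie within the epidermal differentiation complex of chromosome 3, at gaps of 183.6 and 81.9 kb, and Calml3 and Calm4 lie 33.4 kb apart on chromosome 13. All 5 were lower in ΔHD2/-, as were 85 of the 91 called genes. Lce1b and Calm4 entered the test only through the ΔHD2/fl Wnt3a libraries, so the shared direction supports nothing by itself. Rnf222 and Tnfsfm13, 786.8 kb apart on chromosome 11, had opposite signs (-2.11 and 2.67). Whether called genes lay near each other more often than other genes was not tested.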

How the data were processed

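RNA from 27 libraries of 9 mouse mammary tumour cell lines (4 genotypes, 3 treatments, 12 groups) was made into stranded poly(A) libraries and sequenced as single reads. Per the study's methods, the authors aligned reads to mm10 (GRCm38) with STAR, kept unique hits, and counted reads starting in RefSeq exons with QuasR. The deposited table holds CPM per Entrez gene, that is, counts the authors scaled to 1000000 per library. Whether counting used strand is not given in the sources used here, so overlapping and antisense genes are uncertain, and unique hits lower close copies. Libraries held 21.86 to 33.69 M reads, recovered from the CPM steps with 100.0% of values within 0.02 of a whole read. Symbols, coordinates and promoters came from RefSeq on GRCm38.p6, and 80 of 24454 genes had no symbol.

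Groups were taken from the sample labels. Genes reaching 1 CPM in 2 or more libraries entered the test, which was run on log2(CPM + 1), a pseudocount of 1, with limma 3.58.1 (lmFit, eBayes with trend and robust options) in R 4.3.3, with 12 group means over all 27 libraries. The study used edgeR, whose quasi-likelihood test (edgeR 4.0.16) was run here as an alternative on the recovered reads. Adjusted p-values (Benjamini-Hochberg) run over all tested genes. Libraries of 1 line under 3 treatments are not independent (consensus correlation 0.642), the fit does not account for this, and p-values measure the spread between lines. The labels describe replicates as lines from different mice, and give 2 per genotype where ΔHD2/- has 3. Named genes were the targeted genes, up to 10 called genes with the largest difference in each direction, those under 1.5-fold or opposite without cytokine, those called in the interaction, 8 Wnt and Ahr pathway genes, and called members of 19 gene lists with up to 4 further members by mean CPM. The members and lists were chosen with earlier results of these data known. The 14 alternatives are described in the closing section. The fits were tested on simulated data. The level of 1 leukocyte marker is not reported here. Motif searches and figures used Python 3.11.15.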

Additional observations from a re-analysis of the deposited data

Results flagged for a closer look

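A limma interaction test over all tested genes called a different response to Wnt3a in ΔHD2/- and ΔHD2/fl for 2 genes. Both passed the filter on low values only through the ΔHD2/fl Wnt3a libraries, which favours this direction, and neither was called with a pseudocount of 0.1, with edgeR or in a fit of the compared groups only. For Dsc1 the difference in response, ΔHD2/- minus ΔHD2/fl, was -2.91 on the log2(CPM + 1) scale, and for Scel it was -2.46. The response was smaller in 3 of 3 ΔHD2/- lines than in either ΔHD2/fl line for both. The search for a single outlying sample needs groups of at least 4 and was not made for these groups of 2 and 3 lines.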

How the results depend on the processing

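Under 14 alternatives no called difference of a named gene changed direction. Of those not called, Bcl9 (-0.14) and Notum (0.54) had the other sign without ΔHD2/fl line 1, Rnf43 (0.40) without ΔHD2/fl line 2, and Myc (0.06) and Notum (0.59) without ΔHD2/- line 1. By contrast, the numbers of calls (91 under Wnt3a, 73 without cytokine and 2 in the interaction) moved by more than 1.5 times under several. Below, numbers are in that order. A pseudocount of 0.1 gave 58, 52 and 0 calls, and no filter on low values 111, 88 and 8. A fit of the compared groups only gave 1, 0 and 5, none of them shared with the calls above, and a fit of the libraries of the treatment only gave 2 and 1. With ΔHD2/- lines 2 and 3 averaged there were 26, 28 and 2 calls, and edgeR gave 6, 4 and 0. Cell line as a random effect gave 76, 76 and 14. Cell line as a block, chosen after seeing the data, gave 16 interactions. Unadjusted p with a 1.5-fold difference gave 981, 977 and 74 genes. Leaving out 1 line at a time gave 27 to 682 calls under Wnt3a, 26 to 749 without cytokine and 0 to 8 in the interaction. The highest of the first 2 ranges came without ΔHD2/- line 1. The replicate block, which pairs lines by number, gave 180, 156 and 2 calls. Deviations of same-numbered lines correlated by 0.0883 and 0.0871. With only 2 ΔHD2/fl lines, and ΔHD2/- lines 2 and 3 nearly alike, these values are close to 1 measurement and cannot tell whether the numbers pair lines. The numbers were not taken to pair them. Of 39 named called genes, 39 were no longer called in each of the fits of fewer libraries, 37 with edgeR, 29 with lines 2 and 3 averaged, 28 without line 2 and 28 without line 3, 22 and 21 without ΔHD2/fl lines 2 and 1, 16 with the random effect, 14 with the smaller pseudocount, 3 with median-of-ratios scaling and 1 without line 1. Genes that no longer passed the filter without a ΔHD2/fl line have no value there. The last scaling moved the median of all genes from -0.014 to -0.052. Why the numbers moved was not tested. Genes under about 0.1245 CPM, 3 reads in the shallowest of the 5 Wnt3a libraries, cannot be told from 0 at this depth.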

Other observations

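The 14 genes described above as under 1.5-fold or opposite without cytokine, with Scel, were also read in the ΔHD1 lines. ΔHD1/- cells held only Bcl9 and Bcl9l copies without the Pygopus-binding domain, and ΔHD1/fl cells also kept the floxed wild-type copies. These lines entered the comparison only through the filter on low values and the pooled spread. The summed level of these 15 genes under Wnt3a was 97.6 and 144 CPM in ΔHD2/fl lines 1 and 2, where 15 of the 15 were at 1 CPM or more. They were picked as called and lower in ΔHD2/-, so the contrast between ΔHD2/fl and ΔHD2/- was fixed by their selection and is no result. ΔHD1/fl line 1 had 10 of 15 at that level and a sum of 99.5 CPM, from 3.7 CPM without cytokine, with Calm4 at 49.7 CPM and Tmprss11d at 21.5 CPM. ΔHD1/fl line 2 had 0 of 15 and a sum of 2.38 CPM. The ΔHD1/- lines had 1 and 0 of 15, with sums of 2.17 and 1.34 CPM, and the 3 ΔHD2/- lines had 0 of 15, with sums of 1.77, 2.37 and 2.15 CPM. The second line of both ΔHD1 genotypes also differed in cell state markers. For ΔHD1/fl and ΔHD1/- respectively, Cdh1 had 0.107 and 0.121 CPM in line 2 against 544 and 710 CPM in line 1, and Vim had 3467 and 3524 CPM against 74 and 184 CPM. No test was made over these lines.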
